A study of Mus musculus with 8 samples.

Results

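The genes described here belong to the machinery that reseals torn muscle membrane: the ferlins Dysf and Myof, the calpain proteases Capn1, Capn2 and Capn3 with the small subunit Capns1, the caveolar genes Cav3, Cavin1 and Ehd2, and Trim72. They were chosen by name, 10 in all, and 9 of them had a row among the 17352 rows of the value table, each row an Ensembl mouse gene ID. Trim72 (ENSMUSG00000042828_at), which encodes the membrane repair protein MG53, had no row among those used here and was not analysed. The samples were gastrocnemius muscles, a calf muscle, of 24-week-old mice on a C57BL/6 background, from 4 Anxa2 knockout animals and 4 wild-type animals, with 1 array for each. The labels give no sex, and they do not say how Anxa2 was deleted or in which cells. The series title names the role of annexin A2 in muscle repair, and knockout against wild type is its single comparison.

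When the sarcolemma, the plasma membrane of a muscle fibre, tears, calcium flows in and sets off repair. Dysferlin, a membrane-anchored protein with calcium-binding C2 domains, takes part in bringing and fusing vesicles at the wound, and annexins bind there to exposed phospholipid. Calpains are calcium-activated proteases that cut cytoskeletal proteins and dysferlin, and caveolae are small membrane pits that buffer tension and help to hold dysferlin at the surface. Annexin A2 is known to associate with dysferlin, which is why the transcripts of the rest of the machinery are of interest in muscle that lacks it.

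The RefSeq promoter table of GRCm38.p6 held at least 1 start for each of the 10 genes, 14 starts in all. The 250 bases before the start are printed 5′ to 3′ for Myof, the gene with the smallest p below, and for Capn3 and Cav3. Of the other measured genes, Capn3 lay closest to Myof in rank across the arrays. The Cav3 values did not overlap between the sides of a split described further on, as in 7.32% of all rows. CG dinucleotides, the sites of DNA methylation in mammals, are in capitals. The Myof window is chr19:38043578-38043827 on the minus strand, the first Capn3 window is chr2:120463343-120463592 on the plus strand, and the Cav3 window is chr6:112459255-112459504 on the plus strand.
Myof: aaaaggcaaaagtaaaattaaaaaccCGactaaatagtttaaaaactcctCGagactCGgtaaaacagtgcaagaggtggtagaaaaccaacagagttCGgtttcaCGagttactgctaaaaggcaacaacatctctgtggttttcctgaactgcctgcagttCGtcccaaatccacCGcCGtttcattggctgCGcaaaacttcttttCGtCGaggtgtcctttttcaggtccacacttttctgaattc
Capn3: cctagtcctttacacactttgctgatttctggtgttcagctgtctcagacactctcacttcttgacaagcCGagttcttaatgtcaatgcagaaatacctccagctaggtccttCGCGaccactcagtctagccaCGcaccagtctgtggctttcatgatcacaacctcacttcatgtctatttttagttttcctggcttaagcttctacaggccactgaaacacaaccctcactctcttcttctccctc
Cav3: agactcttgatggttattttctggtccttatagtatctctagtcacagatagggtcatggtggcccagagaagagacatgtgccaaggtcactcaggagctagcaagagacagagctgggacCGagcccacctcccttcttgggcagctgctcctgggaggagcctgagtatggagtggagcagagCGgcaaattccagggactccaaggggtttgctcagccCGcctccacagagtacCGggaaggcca

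The Myof window held 11 CG dinucleotides, while the Capn3 and Cav3 windows held 4 each. The Trim72 window held 4 and the second Capn3 window 3, and the windows of Dysf, Capn1, Capn2, Capns1, Cavin1 and Ehd2 held 9 to 19. Of all 32851 windows in the table, 92.1% held at least 1 CG and 44.4% held 4 or fewer, with a median of 6. The E-box, CANNTG, the motif bound by MyoD and its relatives and the same on both strands, was found in 8 of the 14 windows, and in 66.2% of all windows. It had 3 matches in the Trim72 window, 2 in that of Cav3, and 1 in each Capn3 window, the first Capn1 window and those of Capn2, Capns1 and Ehd2. It had none in the windows of Dysf, Myof and Cavin1 or in the second Capn1 window. The GC box, GGGCGG on either strand, which itself contains a CG, was found in 6 of 14 windows and 32.7% of all windows. Of these 6, the 2 Cavin1 windows share 248 of their 250 bases and so hold the same match. The MEF2 motif, on either strand, matched in 1 window, the first of Capn3, and in 2.92% of all windows. These matches describe the letters of the windows, and no value in this study measures binding there.

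Across the 9 measured genes, 0 passed the threshold of an adjusted p under 0.05 in either direction in limma, a linear model with a shared estimate of the spread. Over all rows the share past it was also 0%. At an unadjusted p under 0.05 limma gave 1 of the 9, Myof, lower in the knockout, where 0.818% of all rows were lower, 0.732% higher and 1.55% different in either direction at that level. In 0 of the 9 genes did the 4 knockout arrays lie wholly apart from the 4 wild-type arrays, against 1.31% of all rows. The mean was lower in the knockout for 6 genes and higher for 3, and 52.9% of all rows had a lower mean. The median difference of the 9 genes was -0.02 on the log2 scale, and that of all rows was -0.01. All values are RMA log2 values, so a difference of 1 unit is a doubling, and the values of different genes are not set against each other.

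**Figure D1:**
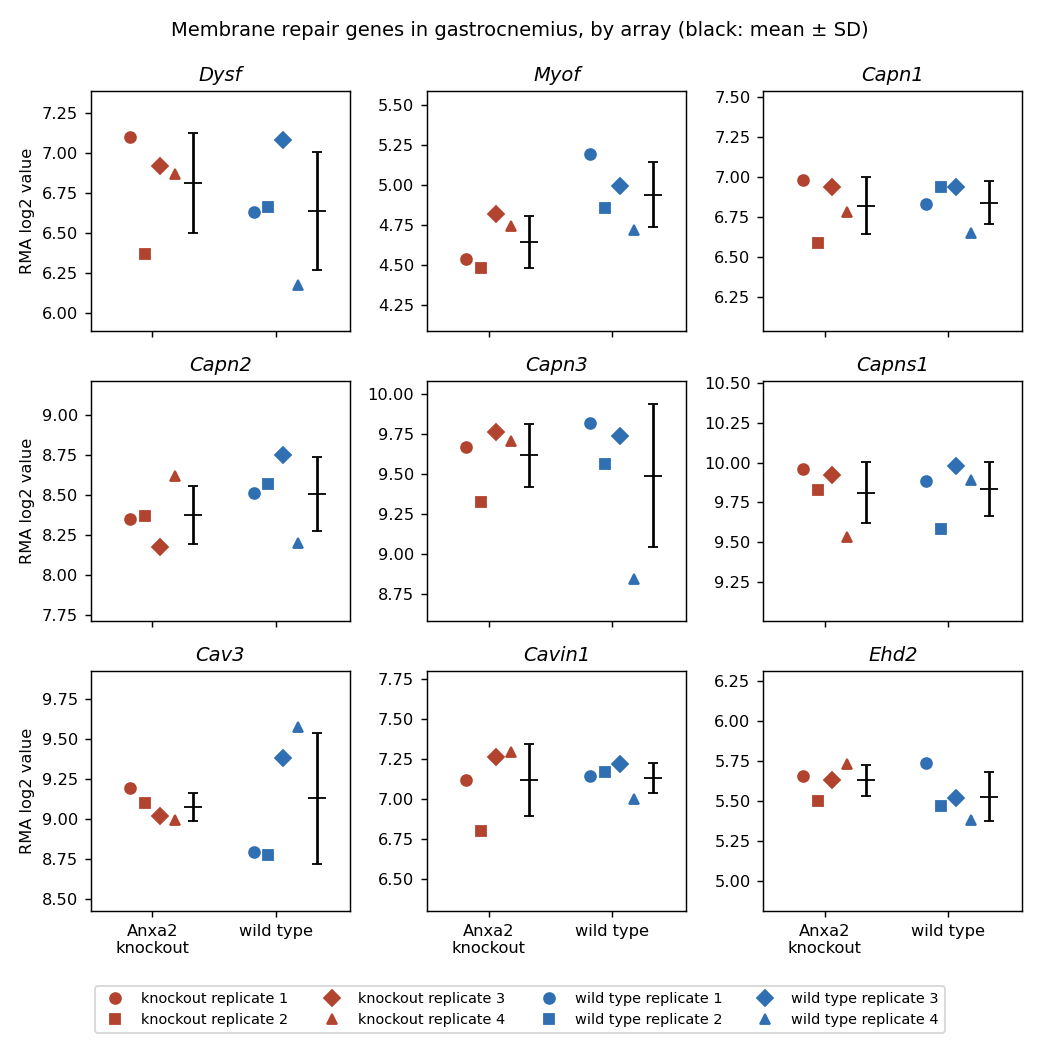
RMA log2 value of each of the 9 genes on every array, with knockout arrays in red at the left of each panel and wild-type arrays in blue at the right; symbols mark the replicate number, black bars give the mean ± SD (n = 4), and every panel spans the same height. In each panel the 2 genotypes overlap, and wild type replicate 4 and knockout replicate 2 are low in most panels.

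The ferlins differed in opposite directions, and neither passed the test. Dysf (ENSMUSG00000033788_at) read 7.10, 6.37, 6.92 and 6.87 in knockout replicates 1 to 4, against 6.63, 6.66, 7.08 and 6.17 in wild-type replicates 1 to 4. The lowest array of each genotype, knockout replicate 2 and wild type replicate 4, lay well below the others, and the highest of each genotype reached nearly the same value. The means were 6.82 ± 0.31 in the knockout and 6.64 ± 0.37 in wild type (SD, n = 4 each), a difference of 0.18 (SE 0.20, 95% interval -0.27 to 0.63, limma adjusted p = 1.00). The difference was 0.02 when wild type replicate 4 was left out, 0.33 when wild type replicate 3 or knockout replicate 2 was, and 0.08 when knockout replicate 1 was.

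Myof (ENSMUSG00000048612_at) encodes myoferlin, the ferlin that is best known from myoblast fusion and that is more abundant in developing and regenerating muscle than in resting fibres. It read 4.54, 4.48, 4.82 and 4.75 in knockout replicates 1 to 4, against 5.19, 4.86, 4.99 and 4.72 in wild-type replicates 1 to 4. Knockout replicates 1 and 2 lay below all wild-type arrays, while knockout replicates 3 and 4 lay above wild type replicate 4. The means were 4.65 ± 0.16 in the knockout and 4.94 ± 0.20 in wild type (SD, n = 4 each). The difference of -0.29 (SE 0.13, 95% interval -0.58 to -0.01), or 1.23-fold lower in knockout muscle, had an unadjusted limma p of 0.043 and an adjusted p of 1.00. Without each array in turn the difference ran from -0.37 to -0.21, with unadjusted p-values between 0.012 and 0.13. No detection call came with the table, so whether this row lay above background is not known.

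The conventional calpains are heterodimers of a large catalytic subunit, calpain 1 or calpain 2, with the small subunit encoded by Capns1. Capn1 (ENSMUSG00000024942_at) read 6.98, 6.59, 6.93 and 6.78 in knockout replicates 1 to 4, against 6.83, 6.94, 6.93 and 6.65 in wild-type replicates 1 to 4. The genotypes covered almost the same range, with a difference of -0.02 (SE 0.12, 95% interval -0.28 to 0.24). Capn2 (ENSMUSG00000026509_at) read 8.35, 8.37, 8.17 and 8.62 in knockout replicates 1 to 4, against 8.51, 8.57, 8.75 and 8.20 in wild-type replicates 1 to 4. Knockout replicates 1, 2 and 3 lay below wild-type replicates 1, 2 and 3, whereas knockout replicate 4 lay above 2 of these and wild type replicate 4 was close to the lowest knockout array. The Capn2 difference was -0.13 (SE 0.14, 95% interval -0.44 to 0.18), and with each array left out in turn it ran from -0.23 (wild type replicate 4 left out) to -0.05 (wild type replicate 3 left out). Capns1 (ENSMUSG00000001794_at) read 9.96, 9.83, 9.92 and 9.53 in knockout replicates 1 to 4, against 9.88, 9.59, 9.98 and 9.89 in wild-type replicates 1 to 4. A single array of each genotype, knockout replicate 4 and wild type replicate 2, was low, and the difference was -0.02 (SE 0.13, 95% interval -0.31 to 0.26). All 3 of these genes had a limma adjusted p of 1.00.

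Capn3 (ENSMUSG00000079110_at) encodes calpain 3, the muscle form of the protease, which binds titin in the sarcomere and whose loss causes a limb-girdle muscular dystrophy in humans. It read 9.67, 9.33, 9.76 and 9.71 in knockout replicates 1 to 4, against 9.82, 9.57, 9.74 and 8.84 in wild-type replicates 1 to 4. Wild type replicate 4 lay far below all other arrays and wild type replicate 1 was the highest, while wild-type replicates 2 and 3 fell in the range of the knockout. The means were 9.62 ± 0.20 in the knockout and 9.49 ± 0.45 in wild type (SD, n = 4 each), a difference of 0.13 (SE 0.20, 95% interval -0.33 to 0.58, limma adjusted p = 1.00). Without wild type replicate 4 the difference was -0.09, so its sign rested on that array.

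Among the caveolar genes, Cav3 (ENSMUSG00000062694_at) encodes caveolin 3, the caveolin of muscle fibres, which forms the caveolar coat with cavin 1. Cav3 read 9.19, 9.10, 9.02 and 8.99 in knockout replicates 1 to 4, against 8.79, 8.77, 9.38 and 9.57 in wild-type replicates 1 to 4. The knockout arrays all lay in the gap between 2 low and 2 high wild-type arrays. The means were 9.07 ± 0.09 in the knockout and 9.13 ± 0.41 in wild type (SD, n = 4 each), and the difference was -0.05 (SE 0.18, 95% interval -0.45 to 0.35, limma adjusted p = 1.00). It was 0.09 when wild type replicate 4 was left out and 0.03 when wild type replicate 3 was.

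Cavin1 (ENSMUSG00000004044_at), also called Ptrf, encodes the cavin that caveolae need in order to form. It read 7.12, 6.80, 7.26 and 7.30 in knockout replicates 1 to 4, against 7.15, 7.17, 7.22 and 7.001 in wild-type replicates 1 to 4. Knockout replicate 2 was the lowest array and knockout replicates 3 and 4 were the highest, on either side of the wild-type values, with a difference of -0.01 (SE 0.12, 95% interval -0.29 to 0.26). Ehd2 (ENSMUSG00000074364_at) encodes an ATPase that sits at the neck of caveolae and steadies them at the surface. It read 5.65, 5.50, 5.63 and 5.73 in knockout replicates 1 to 4, against 5.74, 5.47, 5.51 and 5.38 in wild-type replicates 1 to 4. Most knockout arrays lay above most wild-type arrays, but wild type replicate 1 was the highest of all. The Ehd2 difference was 0.10 (SE 0.11, 95% interval -0.13 to 0.34), and both genes had a limma adjusted p of 1.00.

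**Figure D2:**
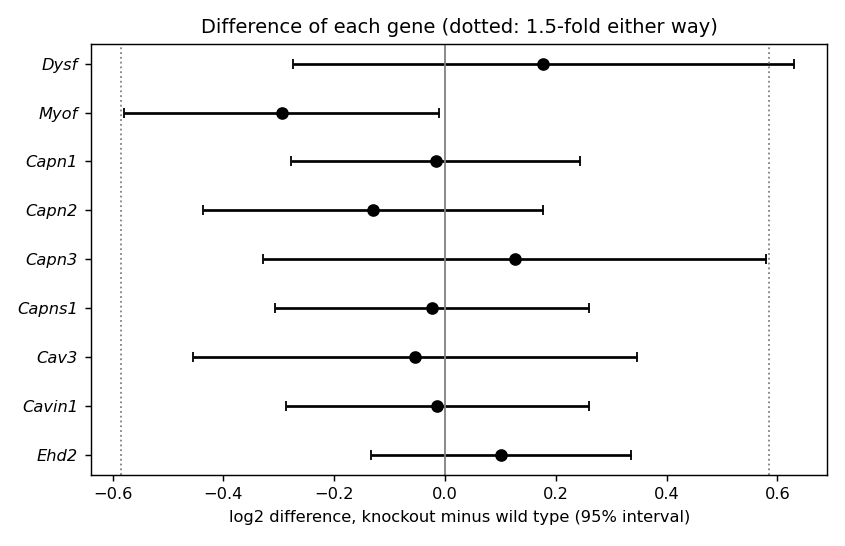
Log2 difference of each gene, knockout minus wild type, as points with the 95% interval of the limma fit (not adjusted for the number of rows); dotted lines mark a 1.5-fold change either way. The interval crosses 0 in every gene except Myof and passes the 1.5-fold line only in Dysf.

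The intervals of the fit with genotype as the only term show how large a difference that fit leaves possible. For 8 of the 9 genes the 95% interval lay within 1.5-fold either way, against 87.1% of all rows. The exception was Dysf, whose interval reached 1.55-fold higher in the knockout. Capn3, at 1.49-fold higher, and Myof, at 1.49-fold lower, came so close to the bound that other settings can carry them past it. The Myof SE was 0.128 in this fit and 0.138 with a replicate block, at the same difference of -0.295. The Capn3 SE was 0.204 here and 0.223 with median centring, at differences of 0.126 and 0.121. Intervals were not computed for the alternatives. A p that misses the threshold does not show that a gene was equal in the genotypes, and smaller differences were within the error.

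The larger differences among these genes lay between animals of the same genotype. The residual SD, the spread of a row around its genotype means, was 0.35 for Capn3, 0.34 for Dysf and 0.30 for Cav3, and 90.3%, 90.1% and 84.1% of all rows had a smaller one. It was 0.13 for Ehd2, the least variable of the 9, where 22.3% of rows had a smaller one, and the median over all rows was 0.18. Much of this spread fell on 2 arrays. Wild type replicate 4 was the lowest of its genotype in 7 of the 9 genes, and knockout replicate 2 in 6. The same count over all rows was not made, so these counts are not read as particular to these genes. Their median deviations from the genotype mean over the 9 genes were -0.17 in knockout replicate 2 and -0.19 in wild type replicate 4, while the other 6 arrays lay between 0.01 and 0.15. Wild type replicate 4 ran against this in Cav3, where it was the highest array of all. Over all rows wild type replicate 4 also stood apart, with a mean correlation of 0.978 with the other arrays, against 0.988 to 0.991 for each of the rest. RNA quality and cell content of the samples were not measured, and their part in these deviations was not tested. In RNA from whole muscle, fewer cells of a type and less RNA per cell cannot be told apart.

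**Figure D3:**
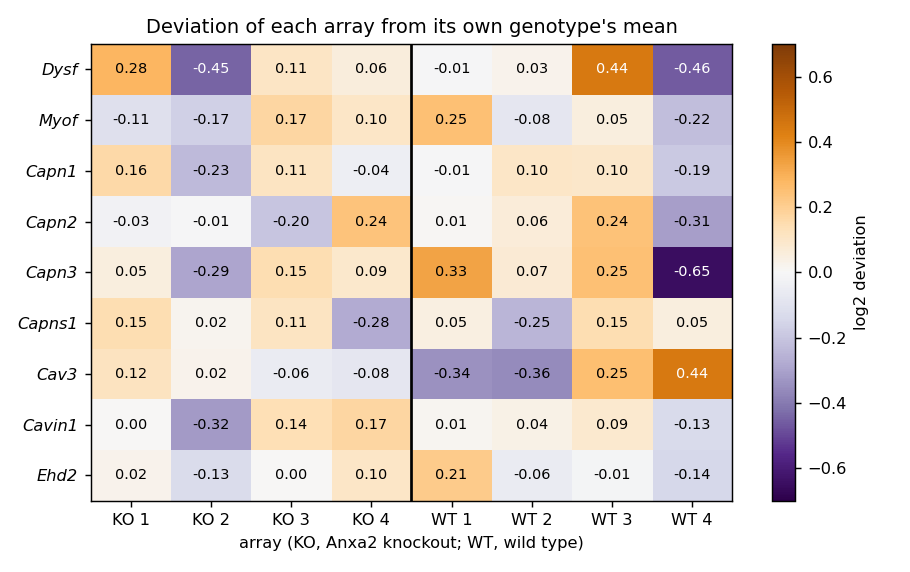
Deviation of each array (columns) from the mean of its own genotype, in log2 units, for the 9 genes (rows), with colour running from purple (below the mean) to orange (above it) and knockout arrays left of the black line. Knockout replicate 2 and wild type replicate 4 are mostly purple, with Cav3 and Capns1 as the exceptions.

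Whether the genes varied together across animals was examined on these deviations over the 8 arrays, for all 36 pairs. The exact permutation test paired arrays in all 576 ways within genotype, and its two-sided p-values were adjusted over the pairs by Benjamini-Hochberg. In 0 of the 36 pairs did Pearson's r pass an adjusted p of 0.05. The pair with the highest r was Dysf and Capn1, with r = 0.90 (exact permutation p = 0.0035, adjusted 0.13) and Spearman's rho = 0.74 (exact permutation p = 0.019, adjusted 0.34). Without wild type replicate 4 and knockout replicate 2, the arrays farthest from the Dysf median, r was 0.55, so that the value rested in part on them. The Dysf and Capn3 pair had r = 0.81 over all arrays (exact permutation p = 0.042, adjusted 0.21) and rho = 0.50 (exact permutation p = 0.28, adjusted 0.59). Without the same 2 arrays its r was 0.02, so that it rested on them.

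Myof and Capn3 kept their order more evenly. Their r was 0.82 (exact permutation p = 0.014, adjusted 0.19) and their rho 0.93 (exact permutation p = 0.0035, adjusted 0.13). The r was 0.82 without wild type replicates 1 and 4, the arrays farthest from the Myof median, and 0.88 without wild type replicate 4 and knockout replicate 2. The r of this pair thus stayed high without the 2 low arrays, although it too missed the adjusted threshold. The pair has the highest rho of the 36, and the r values over 6 arrays carry no test. How many of all rows lie as close to Myof was not counted, so the pair is not read as particular. Other pairs did likewise. For Myof and Ehd2 r was 0.85 (exact permutation p = 0.019, adjusted 0.19), and 0.70 without wild type replicate 4 and knockout replicate 2. For Capn3 and Ehd2 it was 0.78 (exact permutation p = 0.082, adjusted 0.29), and 0.71 without the same arrays. Dysf and Cav3 had an r of -0.15 over 8 arrays (exact permutation p = 0.74, adjusted 0.84, rho = 0.07, exact permutation p = 0.93, adjusted 0.97), and of 0.99 over the 6 arrays left without wild type replicate 4 and knockout replicate 2. No p was computed for the latter. Among those 6, knockout replicate 1 and wild type replicate 3 were the highest of their genotype in both genes. Both lie on the low side of the split of the arrays described below. These genes share arrays, so that anything that shifts a whole array enters every pair.

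**Figure D4:**
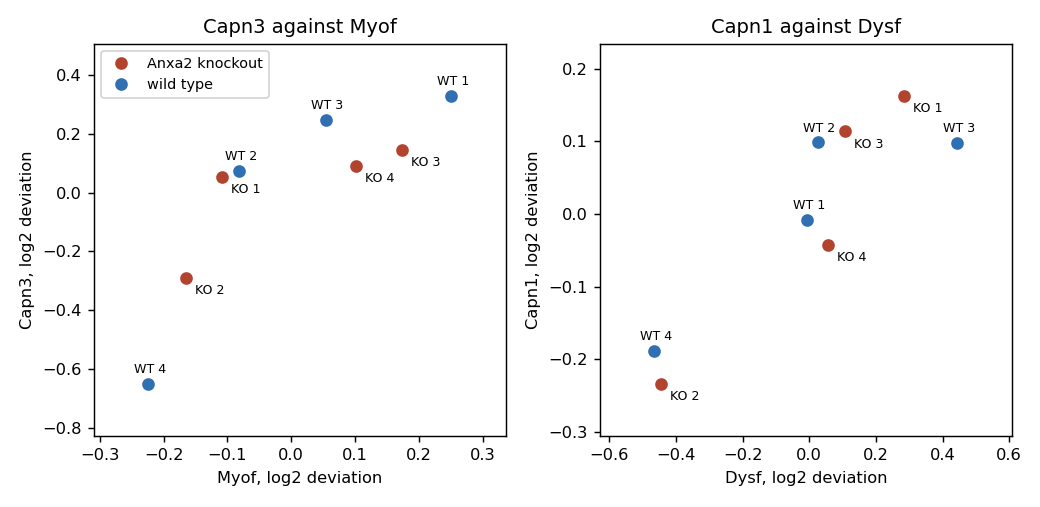
Log2 deviations from the genotype mean of Capn3 against Myof (left) and of Capn1 against Dysf (right), 1 point per array, knockout in red and wild type in blue. In the left panel the points run from the lower left to the upper right, while in the right panel KO 2 and WT 4 lie apart at the lower left.

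Over the whole table the rows closest to Dysf across the arrays were not among these genes. The rows with the highest correlation with it over the 8 arrays were ENSMUSG00000043683_at (r = 0.99) and ENSMUSG00000046280_at (r = 0.98), which the sources used here do not pair with a name. Capn1 ranked 178 of 17351 rows, Capn3 695 and Cavin1 1168, while Myof ranked 3284 and Cav3 8001. These ranks describe 8 arrays and carry no test. The 2 unnamed rows were picked as the highest of 17351, and so wide a search favours them over a few named genes.

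The arrays also fall into sides that cross genotype, and 1 of the 9 genes, Cav3, did not overlap between them, against 7.32% of all rows. The row ENSMUSG00000086503_at, not paired with a name here, read 8.98 and 9.64 in knockout replicates 3 and 4 and 9.26 and 9.13 in wild-type replicates 1 and 2, but only 3.64 and 4.01 in knockout replicates 1 and 2 and 3.56 and 4.07 in wild-type replicates 3 and 4. Each side thus holds 2 animals of each genotype. The labels give no sex and name no factor that sets the sides apart, and what the sides stand for was not tested. Cav3 lay between 8.77 and 9.02 in the 4 arrays where that row was high, and between 9.10 and 9.57 in the 4 where it was low, without overlap. Within the high side the Cav3 difference was 0.22, with means of 9.004 in the knockout and 8.78 in wild type, and both knockout arrays lay above both wild-type arrays. Within the low side it was -0.33, with means of 9.14 in the knockout and 9.48 in wild type, and both knockout arrays lay below both wild-type arrays. Such a separation in opposite directions was seen in 6.49% of all rows. With 1 gene of 9, both patterns are near their shares over all rows and are not read as particular to Cav3. These opposite values rest on 2 arrays against 2 on each side, and their difference was not tested.

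Myof kept its direction on both sides. Its difference was -0.24 on the high side, with means of 4.78 in the knockout and 5.03 in wild type, and -0.35 on the low side, with means of 4.51 in the knockout and 4.86 in wild type. On each side both knockout arrays lay below both wild-type arrays, as in 1.86% of all rows. These are the same arrays in which Myof had the smallest p of the 9 genes. The values on the sides are therefore no separate support for a difference. In all, the genotypes lay apart in 4 of the 9 genes on the high side (Myof lower in the knockout, and Dysf, Cav3 and Cavin1 higher), against 36.4% of all rows. On the low side they lay apart in 2 of the 9 (Myof and Cav3, both lower in the knockout), against 25.9% of all rows. With the side as a block the Myof difference stayed at -0.29 by construction, as the sides are balanced for genotype. Its SE was 0.11, with an unadjusted limma p of 0.025 and an adjusted p of 1.00. In that fit 2.22% of all rows had an unadjusted limma p under 0.05. That fit, too, used the same arrays. For Dysf the within-side differences were 0.25 and 0.11, for Capn2 -0.15 and -0.12, for Capn3 0.04 and 0.21 and for Ehd2 0.08 and 0.13, each on the high side first. Cavin1 changed sign, at 0.12 on the high side and -0.15 on the low side. Capn1 and Capns1 stayed between -0.04 and -0.01 on both sides.

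**Figure D5:**
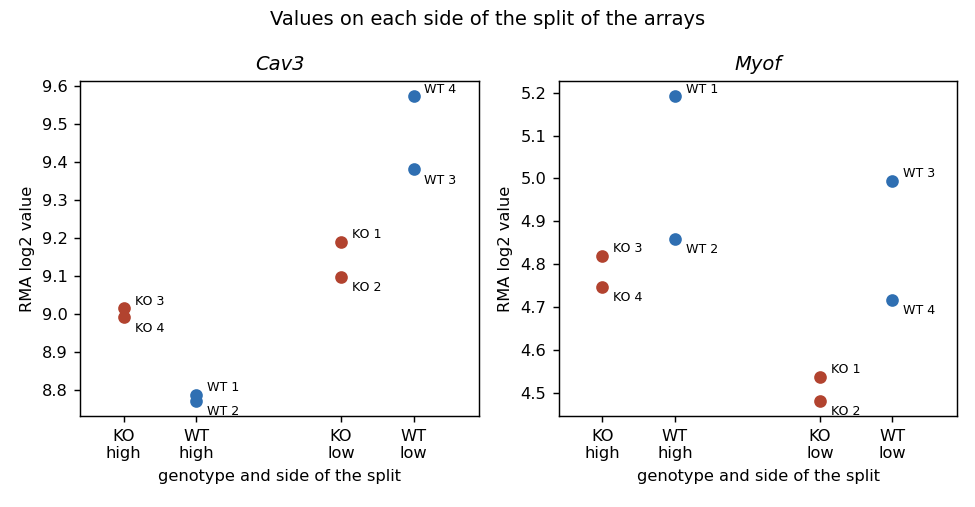
RMA log2 values of Cav3 (left) and Myof (right) on each side of the split of the arrays by row ENSMUSG00000086503_at, with knockout arrays in red to the left of wild-type arrays in blue on each side. Cav3 is higher in the knockout on the high side (difference 0.22) and lower on the low side (difference -0.33), whereas Myof is lower in the knockout on both.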

How the data were processed

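The deposited table holds log2 expression values, 1 column per array; per the submitters' processing notes the authors used RMA (background correction, quantile normalization and probe-set summary) and R 3.1.2. Per the labels' protocols, total RNA was labelled by a kit that primes at the 3′ end. How probes were assigned to genes, and any filter, is not given in the sources used here. Row IDs of the 10 genes came with the choice of genes; the name table of GRCm38.p6 has 49997 genes, 0 with an Ensembl ID, so other rows were not named. No row was assigned to Anxa2, the labelled tissue was not checked against markers, and the 14 lists of other repair genes and cell type markers written by symbol were not analysed here.

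Limma 3.58.1 in R 4.3.3 was fitted to all 17352 rows of 8 arrays with genotype as the only term, empirical Bayes moderation, two-sided tests and adjustment by Benjamini-Hochberg over the whole table, after a test on simulated data. No low-value filter was used. Replicates are separate animals per the labels' wording of biological replicates, and the number of arrays limits the precision. Genes, lists and alternatives were chosen with earlier results of these data known. By the rule for named genes, all 9 measured genes are given, with the 2 unnamed rows most like Dysf; the row that marks the split of the arrays was known from earlier results. The pairing of replicate numbers was checked through the correlation of deviations of same-numbered arrays over all rows, which was -0.072, -0.25, 0.18 and -0.24 for replicates 1 to 4, so the numbers were not taken to pair the samples. Alternatives were a replicate block, a block for the split, array weights, filters that kept rows above the 25th or the 50th percentile by mean, robust moderation with a trend on intensity, median centring, renewed quantile and cyclic loess normalization, and left-out arrays. Figures were drawn with matplotlib 3.10.9.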

Additional observations from a re-analysis of the deposited data

How the results depend on the processing

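The count of genes past the adjusted threshold was 0 in all 18 alternatives, with adjusted limma p-values of 0.94 to 1.00. The count at an unadjusted limma p under 0.05 was 1, Myof. It became 0 under the 50th percentile filter, which left Myof out, and also 0 with the replicate block, median centring, quantile normalization and cyclic loess. In these 4 fits the unadjusted limma p of Myof was 0.069, 0.053, 0.079 and 0.089. Without each array in turn the count ran from 0 to 1, and it was 0 without knockout replicate 1 or 2 or wild type replicate 1, 2 or 3. The pairing of the numbers is not given by the labels, and the replicate block changed no adjusted call among these genes. Over all rows the count past the adjusted threshold went from 0 to 1 with the replicate block, array weights, median centring, quantile normalization and cyclic loess. In each of these fits the row was none of the 9 genes, and whether it was the same row is not given here. Myof, Capn2, Dysf and Ehd2 kept their sign in all alternatives that tested them. Myof lay between -0.37 and -0.21, Capn2 between -0.23 and -0.05, Dysf between 0.02 and 0.33 and Ehd2 between 0.05 and 0.17. The row filters, both blocks and robust moderation with a trend cannot change a gene's difference in this design. A sign could turn only in the other alternatives. The sign turned with array weights for Cav3 (0.10) and Capns1 (0.045), and without both wild type replicate 4 and knockout replicate 2 for Cav3 (0.085) and Cavin1 (0.048). Without each array in turn, Cav3 lay between -0.17 and 0.094, Capn1 between -0.079 and 0.061, Capn3 between -0.091 and 0.24, Capns1 between -0.11 and 0.069 and Cavin1 between -0.072 and 0.092. In that series the sign turned without wild type replicate 4 (Cav3, Capn3), wild type replicate 3 (Cav3, Capn1, Capns1, Cavin1), wild type replicate 2 (Capn1), knockout replicate 2 (Capn1, Cavin1) and knockout replicate 4 (Capns1). The cause was not tested. The median difference of the 9 genes lay between -0.071, with knockout replicate 1 left out, and 0.061, with knockout replicate 2 left out. It was above 0 in 4 of 18 alternatives, the others being array weights (0.007), wild type replicate 3 left out (0.026) and both wild type replicate 4 and knockout replicate 2 left out (0.006), so it has no settled sign. The number of arrays, 4 a genotype, limits what can be seen.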
